A study of Mus musculus with 37 samples.

Results

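Among 7 ureters from the noncancerous side of mice treated with the bladder carcinogen BBN, the basal keratin gene Krt14 ranged from 5.67 to 2849 CPM, the read count scaled to the total of its library. The 7 libraries are all those labelled as the noncancer side (UN), of 37 libraries of mouse upper urinary tract and bladder. They were put in order of Krt14 CPM, and the 3 highest (UN 3, UN 7 and UN 1, called Krt14-high here) were set against the other 4 (UN 4, UN 9, UN 6 and UN 2, called Krt14-low). Krt14 was 479 CPM in UN 1, the last library inside the Krt14-high side, and 230 CPM in UN 4, the first outside it. Since the order comes from counts of the same libraries, every difference in gene expression between the 2 sides is given as a description without a test.

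All UN libraries are bulk RNA of a ureter of wild-type female BALB/c mice that drank BBN, N-butyl-N-(4-hydroxybutyl) nitrosamine, for about 18 weeks (the weeks to death differed between animals of the study), 1 library from each of 7 mice. The other ureter of these 7 mice bore cancer (UT, 11 libraries in the series from 10 mice), and their bladders (BB) were sequenced too. Untreated ureters (U) are 6 libraries from both ureters of 3 female BALB/c mice on tap water. UN 3, UN 4 and UN 7 are right ureters, and UN 1, UN 2, UN 6 and UN 9 are left ureters. Mice were treated from young adulthood. The noncancer side is the ureter in which microscopy found no cancer, and its sample can hold urothelium, muscle, stroma and periureteral fat in unknown shares.

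The urothelium lines the ureter as a stratified epithelium. Its basal cells rest on the basement membrane, carry Krt5 and its partner Krt14 with the transcription factor Trp63, and include the progenitors of the tissue, while the luminal umbrella cells make uroplakins that seal the surface. Krt14 is low in resting urothelium and is a known mark of basal cells in carcinogen-treated bladder and of basal and squamous urothelial cancers. In bulk RNA, fewer cells of a type and less RNA per cell cannot be told apart, and each change of share of 1 tissue moves the CPM of all others.

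The libraries of the 2 sides differed in quality as follows. The RNA integrity number (RIN, from 1 for degraded to 10 for intact RNA) was 6.8 in UN 3, 7.2 in UN 7 and 5.7 in UN 1, and 6.5 in UN 4, 7.1 in UN 9, 3.2 in UN 6 and 6.6 in UN 2. Total counts were 14973904, 14871092 and 12452112 in UN 3, UN 7 and UN 1, and 10965259, 13360552, 4675081 and 10941541 in UN 4, UN 9, UN 6 and UN 2. The sides overlapped in both measures. Mean RIN was 6.57 ± 0.777 (SD, n = 3) in the Krt14-high and 5.85 ± 1.79 (SD, n = 4) in the Krt14-low libraries, a difference of 0.717 (two-sided exact permutation test, p = 0.686, adjusted p = 0.914 over 4 tests), and without UN 6 it was -0.167. Mean totals were 14100000 ± 1427000 (SD, n = 3) and 9986000 ± 3718000 (SD, n = 4), a difference of 4113000, and 2343000 without UN 6. Totals enter the Krt14 CPM that set the order, so this difference is a description and its p, though counted among the 4, is not given. With 3 against 4 mice the smallest p the permutation test can give is 0.0571, so it could not reach 0.05. UN 6 also stood apart in having 19.7% of its counts on Rn45s, a ribosomal RNA gene, where the other 6 had at most 0.989%. UN 2 held nearly no urothelial RNA (its uroplakins were at most 3.75 CPM). The counts of all genes and of list members that separate the sides were therefore also taken without UN 6 and without UN 2.

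**Figure D1:**
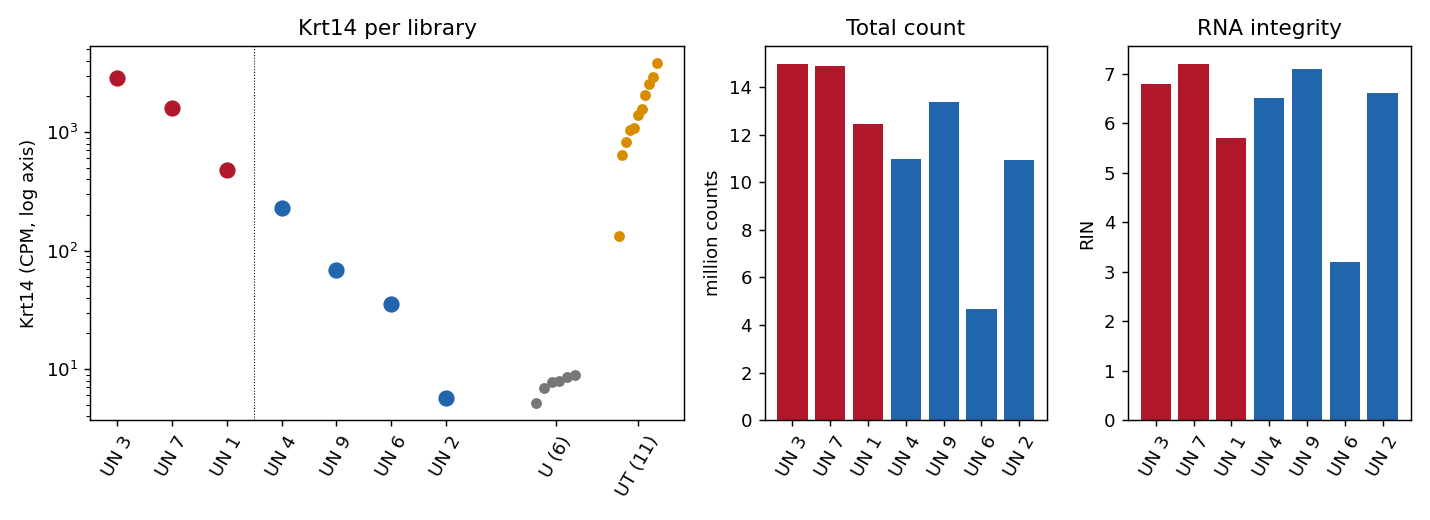
Krt14 in CPM on a log axis for the 7 UN libraries, the 6 U and the 11 UT libraries (left), and total counts (middle) and RIN (right) of the UN libraries; red marks the Krt14-high and blue the Krt14-low libraries, gray U and orange UT. Krt14 falls from 2849 to 5.67 CPM over the UN libraries without a break at the dotted line, and UN 6 is the lowest in total count and in RIN.

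Krt14 (ENSMUSG00000045545.8) is a protein-coding gene on the minus strand of chr11:100203162-100207548 (GRCm38, GENCODE vM21), in the type I keratin cluster that also holds Krt15 at chr11:100131758-100135928 and Krt17 at chr11:100256217-100261029. Its transcript shares 46 of 1599 windows of 100 bases (2.88%), the read length, with Krt16, and reads from such windows could be counted for either gene. The shared bases form 2 stretches of the coding part of exon 1, printed here since they are the part of Krt14 where its count could hold Krt16 reads:
Krt14 chr11:100207176-100207285: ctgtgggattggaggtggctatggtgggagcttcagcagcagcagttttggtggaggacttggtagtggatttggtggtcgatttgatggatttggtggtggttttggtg
Krt14 chr11:100207017-100207150: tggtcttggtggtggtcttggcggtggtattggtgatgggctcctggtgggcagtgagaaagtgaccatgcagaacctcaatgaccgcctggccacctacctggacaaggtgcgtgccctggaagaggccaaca
Both are on the minus strand, written 5′ to 3′, 110 and 134 bases long. Krt16, a keratin of activated keratinocytes, was 108 CPM in UN 3, 106 in UN 7, 9.68 in UN 1, 4.79 in UN 4, 1.61 in UN 9, 1.18 in UN 6 and 0.457 in UN 2. Its reads stayed fewer than those of Krt14 in each of the 7 libraries, and 24.3% of its own windows are shared with Krt14 or Gm11597.

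Krt14 was 2849 CPM in UN 3, 1585 in UN 7, 479 in UN 1, 230 in UN 4, 68.0 in UN 9, 35.5 in UN 6 and 5.67 in UN 2, the last 2 values resting on 166 and 62 counts. Untreated ureters had 5.14 to 8.84 CPM. All UN libraries but UN 2 lay above every U library, and UN 2 lay within the U range. The cancer sides had 132 to 3834 CPM with a median of 1405, so that the 3 Krt14-high libraries and UN 4 fell inside the UT range and UN 9, UN 6 and UN 2 below it. The order of the 7 libraries put the same 3 on top when CPM was taken on TMM library sizes or DESeq2 size factors.

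Of 15034 genes with a mean of at least 1 CPM over the 7 UN libraries, 2185 (14.5%) were higher in every Krt14-high than in every Krt14-low library, and 363 (2.41%) were lower. The sides overlapped for the other 12486. Gene lists are counted over the members that passed this level, which were all members of 14 of the 26 lists. It was passed by 28 of 30 squamous, 22 of 24 TNF and interleukin, 10 of 12 EGF family, 13 of 20 alarmin, 12 of 14 neutrophil, 14 of 18 T and NK cell, 7 of 12 B and plasma cell, 10 of 11 mast cell, 8 of 12 nerve, 9 of 16 kidney, 8 of 10 mesothelial and 7 of 8 erythroid genes. Of those that did not overlap, 85.8% were higher in the Krt14-high libraries, and the median log2 difference of all genes was 0.39 (medians of log2(CPM + 1), Krt14-high minus Krt14-low). This split depended on scaling. With TMM library sizes, which assume that most genes are unchanged, 1033 genes were higher and 1077 lower, 49% higher, with a median of -0.02 over all genes. Of these, 932 and 339 were among the genes counted above. Leaving out a library eases the criterion and gave between 2393 and 4844 genes higher and between 480 and 823 lower. The counts moved most without UN 3 (4844 higher, 586 lower) and UN 4 (4019 and 650), and the lower genes also without UN 1 (823) and UN 6 (810). With the 2 highest libraries set against 5, the counts were 1961 and 640, and with the 4 highest against 3 they were 3404 and 442.

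Of the 12 genes with the widest gap above the Krt14-low libraries, 3 were keratins. Krt15, a type I keratin of basal cells, had the widest gap of all, with 5344, 2884 and 785 CPM in UN 3, UN 7 and UN 1 against 161, 79.5, 77.0 and 6.95 in UN 4, UN 9, UN 6 and UN 2. Its lowest Krt14-high value lay 2.28 log2 units above the highest Krt14-low value, and the U libraries had 9.23 to 20.3 CPM. Krt17, a keratin induced in stressed and healing epithelium, was 291, 391 and 55.1 CPM against 16.6, 5.16, 5.03 and 1.28, with at most 1.08 in U. Krt4, a keratin of the upper layers of wet stratified epithelia, was 304, 689 and 109 CPM against 31.6, 14.9, 8.13 and 1.55, with at most 3.95 in U. UN 4 was the highest Krt14-low library for each of these 3 keratins, and UN 2 the lowest.

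The basal list holds Krt14 itself, which separates the sides by the way they were made, so it is described without it, a choice made after the values were seen. Of its 15 other genes, 11 were higher in every Krt14-high than in every Krt14-low library and 0 were lower, beside 14.5% and 2.41% of all genes. Their median log2 difference was 2.46, and 1.94 with TMM sizes, beside medians of 0.39 and -0.02 over all genes. Krt5, the partner of Krt14, was 2244, 1677 and 459 CPM against 256, 107, 105 and 2.88, with 85.8 to 137 in U. Unlike Krt14, Krt5 in UN 9 and UN 6 lay inside the U range. Lama3, a chain of the laminin that anchors basal cells, was 51.6 to 97.9 CPM against 1.01 to 22.3 CPM. The 4 overlapping members were Trp63, Itga6, Bcl11b and Dst. Trp63, the transcription factor that defines basal cells, was 79.2, 240 and 88.8 CPM against 93.5, 27.1, 12.6 and 4.48, so UN 4 exceeded UN 3 and UN 1. The count of 11 stayed the same without UN 6, without UN 2 or without both, beside 16.7%, 17.4% and 21.3% of all genes.

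**Figure D2:**
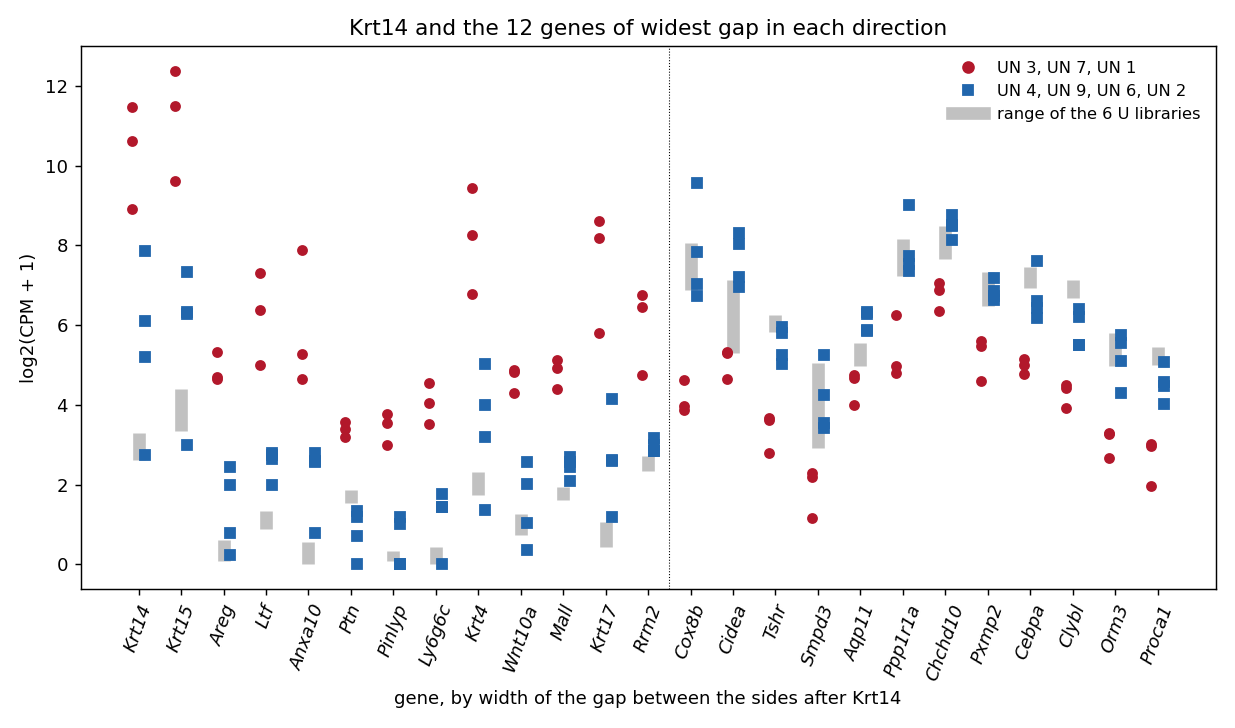
Level of Krt14 and of the 12 genes with the widest gap between the sides in each direction, as log2(CPM + 1), 1 point per UN library, with gray bars for the range of the 6 U libraries. For every gene left of the dotted line the 3 red points lie above the 4 blue ones, and to its right below them, which is how the genes were chosen.

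The Krt14-high libraries also had higher levels of most general epithelial genes. Of 20 general epithelial genes, 16 were higher and 0 lower (Cdh1, Krt18, Esrp2 and Prss8 overlapped), beside 14.5% and 2.41% of all genes. The median log2 difference was 2.6, and with TMM sizes it was 2.01 with 16 higher, beside 6.72% of all genes. The summed CPM of the 20 genes was 10790 in UN 3, 8166 in UN 7 and 9055 in UN 1, and 5434 in UN 4, 1891 in UN 9, 1013 in UN 6 and 46.6 in UN 2. The sides did not overlap. Untreated ureters had 1303 to 2505 CPM, so UN 9 lay inside and UN 6 and UN 2 below the range of U, and UN 4 and the 3 Krt14-high libraries above it. Epcam, an epithelial adhesion protein, was 737, 330 and 291 CPM against 177, 53.9, 27.6 and 3.2. Krt7, a simple-epithelial keratin, was 3209, 1620 and 1557 CPM against 1004, 354, 163 and 8.68. The part of this difference in epithelial content in the other genes of the contrast was not tested.

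UN 2 had the defining markers of urothelium near 0. Its Upk1b, Upk2 and Upk3a, uroplakins of the umbrella cells, were 3.75, 0.274 and 2.47 CPM, where the 6 U libraries had 259 to 561, 58.7 to 120 and 365 to 776 CPM. Its epithelial sum was the lowest of the 24 ureter libraries. Its smooth muscle sum was low as well, at 1431 CPM against 3352 to 5201 CPM in U. Myh11 was 25.6 CPM against 234 to 972 CPM in U, while Tagln and Ppp1r14a lay inside the U range. Its adipocyte sum of 69360 CPM lay in the U range of 52230 to 78660 CPM, and its macrophage sum of 9161 CPM was the highest among the UN libraries.

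To see Krt14 apart from the amount of epithelium, its CPM was divided by the epithelial sum, a scale chosen after the values were seen. Krt14 per 1000 epithelial CPM was 264 in UN 3, 194 in UN 7 and 52.9 in UN 1, and 42.3 in UN 4, 36.0 in UN 9, 35 in UN 6 and 122 in UN 2. The U libraries had 3.27 to 3.95, below every UN library. On this scale UN 3 and UN 7 stood within the UT range of 83.4 to 348, and UN 1 lay nearer to UN 4, UN 9 and UN 6 than to UN 7. The value of UN 2 rests on 62 counts of Krt14 and an epithelial sum of 46.6 CPM, and with it the sides overlapped. The summed basal genes without Krt14 were 828, 823 and 249 per 1000 epithelial CPM in UN 3, UN 7 and UN 1, against 198, 290, 453 and 2456 in UN 4, UN 9, UN 6 and UN 2, and 151 to 324 in U. UN 9, UN 6 and UN 2 exceeded UN 1, which lay inside the range of U.

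Luminal genes mostly overlapped between the sides. Of 17, 3 were higher in the Krt14-high libraries (Psca, Elf3 and Foxa1) and 0 lower, a count near the 14.5% and 2.41% of all genes, and the sums overlapped. With TMM sizes 3 were higher and 1 lower, beside 6.72% and 7.0% of all genes. The sum was 3082 CPM in UN 3, 2897 in UN 7 and 4483 in UN 1, against 3841 in UN 4, 1377 in UN 9, 1209 in UN 6 and 379 in UN 2, and 1824 to 3284 in U. Upk3a, a uroplakin of the apical plaques, was 296, 288 and 1054 CPM against 1086, 243, 251 and 2.47. Per 1000 epithelial CPM, the luminal sum was 286 in UN 3, 355 in UN 7 and 495 in UN 1, against 707 in UN 4, 728 in UN 9, 1193 in UN 6 and 8140 in UN 2, and 1270 to 1400 in U. The sides did not overlap on this scale, and the 3 Krt14-high libraries lay in the UT range of 152 to 607. Pparg and Cyp4b1, of the luminal list, are also made by fat cells and are the largest part of the sum in UN 2, at 248 and 110 CPM.

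**Figure D3:**
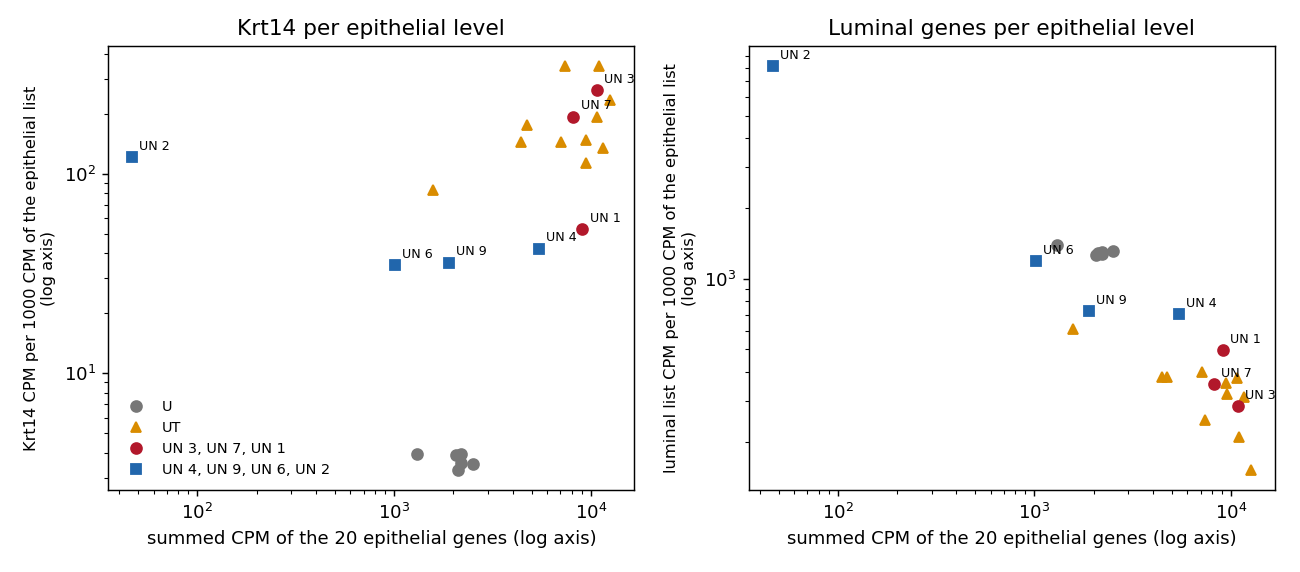
Krt14 (left) and the summed luminal genes (right) per 1000 CPM of the epithelial list, against the summed CPM of the 20 epithelial genes, for each U, UT and UN library, on log axes. All UN libraries lie above U in Krt14 per epithelium, and UN 2 stands apart with an epithelial sum of 46.6 CPM.

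Genes of squamous differentiation were higher in the Krt14-high libraries for 17 of 28 members and lower for 0, beside 14.5% and 2.41% of all genes, at a median log2 difference of 2.19. With TMM sizes the median was 1.65 and 10 were higher, beside 6.72% of all genes. The count was 22 without UN 6 and 25 without UN 6 and UN 2, beside 16.7% and 21.3% of all genes. Per 1000 epithelial CPM, the squamous sum was 735.9 in UN 3, 1164 in UN 7 and 577.5 in UN 1. It was 593.6 in UN 4, 698 in UN 9, 3407 in UN 6 and 1487 in UN 2, and 590.8 to 707.3 in U. The sides overlapped on this scale, and UN 1 was the lowest UN library and below the U range. Sfn, the epithelial 14-3-3 protein sigma, was 389, 338 and 146 CPM against 54.5, 28.4, 16.5 and 1.19. Ivl, the cornified envelope protein involucrin, was 91.4, 347 and 149 CPM against 47.4, 34.8, 31.2 and 0.640. The terminal genes Krt1, Krtdap and Sprr3 overlapped, with 5.38, 36.8 and 39.3 CPM in UN 7, at most 1.74 CPM in UN 3 and UN 1, and 1.497, 4.49 and 2.995 CPM in UN 6. Krt6a, which shares 34% of its windows with Krt6b and other genes, was 388, 582 and 20.2 CPM against 5.73, 4.47, 12.5 and 1.17. Sprr2a1 and Sprr2a2, both counted among the 17, had the same values in every library, so their reads could not be assigned to either gene.

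Of 10 genes of the EGF receptor family and its ligands, 5 ligands were higher and 0 genes lower, beside 14.5% and 2.41% of all genes, and with TMM sizes 5 were higher and 1 lower, beside 6.72% and 7.0%. Areg, amphiregulin, had the second widest gap of all genes named and was 24.2, 25.2 and 39.0 CPM in UN 3, UN 7 and UN 1 against 0.730, 4.42, 3.0 and 0.183 CPM, with at most 0.521 in U. UN 1, the library of least Krt14 on its side, had the most Areg. Ereg, epiregulin, was 11, 48.4 and 18.2 CPM against 2.83, 3.29, 4.71 and 0.183, and Hbegf was 21.2, 66.7 and 25.2 CPM against 11, 9.58, 8.56 and 4.94. The other ligands that were higher were Btc and Nrg1, of which Nrg1 passed the mean of 1 CPM only through the Krt14-high libraries. The receptors overlapped. Egfr was 27.5, 65.6 and 42.9 CPM against 34.2, 18.5, 6.85 and 18.4, and Erbb2 was 40.3, 97.9 and 84.6 CPM against 67.2, 35.1, 12.8 and 3.93.

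The 250 bases before the start of Areg (chr5:91139349-91139598, plus strand) and of Cox8b (chr7:140900447-140900696, minus strand) are shown from RefSeq (GRCm38.p6), since these genes have the widest gap in their direction among the 16 of 25 named genes found in the promoter table. Capitals mark the TATA box letters TATAAA:
Areg: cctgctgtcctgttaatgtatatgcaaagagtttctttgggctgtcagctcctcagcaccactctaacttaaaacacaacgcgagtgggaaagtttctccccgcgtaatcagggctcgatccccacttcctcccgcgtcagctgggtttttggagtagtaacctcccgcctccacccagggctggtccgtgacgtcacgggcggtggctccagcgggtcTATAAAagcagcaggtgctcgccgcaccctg
Cox8b: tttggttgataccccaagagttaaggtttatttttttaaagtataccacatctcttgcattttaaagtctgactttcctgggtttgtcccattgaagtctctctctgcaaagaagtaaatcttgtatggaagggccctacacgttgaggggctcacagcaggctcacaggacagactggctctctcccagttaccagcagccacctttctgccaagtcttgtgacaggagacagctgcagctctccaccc
The match in Areg begins 31 bases before its start. Searched on both strands, TATAAA occurred in 6.48% of 2067 such windows of genes higher in the Krt14-high libraries, in 7.67% of 339 windows of genes lower and in 7.12% of 14305 windows of all genes tested, and in 12.4% of all 32851 windows of the table. The AP-1 letters TGANTCA occurred in 6.05%, 6.49%, 5.26% and 6.75%, and in neither window shown. A match describes the letters only.

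The remaining genes of widest gap were of mixed function. Ltf, the iron-binding secreted protein lactoferrin, was 82.0, 159 and 31.1 CPM against 5.65, 5.24, 3.0 and 5.94, with 0.851 to 1.54 in U. Anxa10, an annexin, was 234, 24.2 and 38.1 CPM against 5.02, 5.99, 4.92 and 0.731. Both lay above the U range in every Krt14-low library. Wnt10a, a Wnt ligand, was 18.6 to 28.3 CPM against 0.274 to 4.93. Ptn, the secreted growth factor pleiotrophin, was 8.11 to 11 CPM against 0 to 1.55, and the Krt14-low libraries lay below the 1.91 to 2.64 CPM of U. Ly6g6c and Pinlyp were 10.6 to 22.5 and 6.99 to 12.6 CPM against at most 2.37 and 1.27, and Mall, a membrane protein of lipid rafts, was 34.1, 29.5 and 20 CPM against 3.29 to 5.47 CPM. Ptn and Pinlyp passed the mean of 1 CPM only through the Krt14-high libraries.

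Of 24 cell cycle genes, 19 were higher in the Krt14-high libraries and 0 lower, beside 14.5% and 2.41% of all genes, at a median log2 difference of 2.31. With TMM sizes the median was 1.82 and 16 were higher, beside 6.72% of all genes. Rrm2, a subunit of the ribonucleotide reductase that makes DNA precursors, was 86.2, 108 and 25.9 CPM against 8.03, 6.18, 6.20 and 6.98, with 4.04 to 5.62 in U. Top2a, the topoisomerase of dividing cells, was 26.0, 90.6 and 24.0 CPM against 9.39, 10.8, 7.70 and 6.58, with 2.73 to 5.16 in U. Both genes lay above the U range in all 7 UN libraries. The overlapping members were Bub1, Birc5, Tyms, Ccne1 and E2f1, of which Tyms was 317 CPM in UN 6 and 29.2 to 74.5 CPM in the other 6. The summed list was 1051, 1290 and 493 CPM against 288, 238, 447 and 242, and 159 to 195 in U. UN 6 reached 447 CPM largely through Tyms.

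Inflammatory and stress lists were split. Of 22 genes of TNF and interleukin signaling, 6 were higher and 0 lower, beside 14.5% and 2.41% of all genes, and 11 were higher without UN 2, beside 17.4% of all genes. Il1rn, the interleukin 1 receptor antagonist, was 76.1, 98.5 and 38.9 CPM against 15.1, 14.5, 1.93 and 16.6. Ptgs2, the inducible cyclooxygenase, was 9.82, 66.3 and 3.13 CPM against 2.1, 1.80, 1.5 and 0.914. Il1b overlapped, at 60.6, 23.0 and 5.06 CPM against 2.1, 4.87, 0.428 and 31.3, where UN 2 exceeded UN 7 and UN 1. Tnf was under 3 CPM in every UN library. The chemokines of the list, such as Cxcl1 with 2.27, 10.4 and 3.45 CPM against 1.55, 9.81, 0.214 and 7.31, overlapped too. Cxcl1, Cxcl2 and Ccl2 were higher in both UN 9 and UN 2 than in UN 1. Cxcl5 and Cxcl3 overlapped through UN 2 alone. Cxcl5 was 16.5, 24.0 and 2.57 CPM against 0.821, 0.898, 0.817 and 3.82. Cxcl3 was 5.64, 2.555 and 0.562 CPM against 0.0912, 0.15, 0 and 0.777.

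Of 24 interferon response genes, 3 were higher (Oasl1, Irf7 and Usp18) and 0 lower, beside 14.5% and 2.41% of all genes, and with TMM sizes 2 were higher, beside 6.72%. The summed list was 359 CPM in UN 3, the lowest of the 7, and 1763 and 1161 in UN 7 and UN 1, against 528, 760, 390 and 518, and 464 to 703 in U. Krt14 and the interferon genes were thus in different orders, with the library of most Krt14 at the bottom.

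Of 14 genes of NRF2 and glutathione, 5 were higher and 0 lower, and so were 5 of 16 p53 targets and 6 of 13 keratinocyte alarmins and proteases, beside 14.5% and 2.41% of all genes. Among the genes counted as higher, Gdf15 and the protease gene Mmp10 passed the mean of 1 CPM only through the Krt14-high libraries. Of 16 immediate early genes 2 were higher, a share below 14.5%. Akr1b8, an aldo-keto reductase, was 535, 477 and 365 CPM against 186, 94.0, 75.5 and 36.0, and Nqo1, a quinone reductase, was 138, 144 and 94.1 CPM against 67.0, 30.3, 32.3 and 11.7. Among p53 targets, Gdf15 was 3.07, 8.61 and 6.43 CPM against at most 1.27, with at most 0.186 in U. Cdkn1a, the cell cycle inhibitor p21, was 196, 165 and 431 CPM against 186, 80.5, 55.6 and 62.4, and the sides overlapped by UN 4 alone. All 7 libraries lay above the 15.2 to 22.5 CPM of U. Serpinb5 and S100a14, both made by epithelium, were 98.7 to 235 and 87.1 to 207 CPM against 1.10 to 44.3 and 0.914 to 41.0 CPM. The immediate early genes that did not overlap were Ier3 and Myc, while Fos was 51.0, 47.7 and 159 CPM against 27.8, 214, 3.64 and 70.7. Of 14 hypoxia genes, Slc2a1 was higher. With TMM sizes, 4 of the NRF2 genes, 2 of the p53 targets, 4 of the alarmins, 1 immediate early gene and 1 hypoxia gene were higher, and 1 NRF2 and 2 hypoxia genes were lower, beside 6.72% and 7.0% of all genes.

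Fat genes took the opposite side. Of 14 adipocyte genes, 5 were lower in the Krt14-high libraries and 0 higher, beside 2.41% and 14.5% of all genes, at a median log2 difference of -1.77. With TMM sizes the median was -2.0 and 6 were lower, beside 7.0% of all genes. Without UN 6 the count was 9, beside 5.51% of all genes. Retn, the fat hormone resistin, was 590, 588 and 1200 CPM against 2032, 2442, 3611 and 4261, and Adipoq, adiponectin, was 484, 502 and 1101 CPM against 1788, 2699, 1221 and 3181. Retn lay below the U range of 2179 to 4414 CPM in the Krt14-high libraries and in UN 4. Adipoq lay below the U range of 2737 to 4128 CPM in every UN library but UN 2. The summed list was 16440, 11910 and 24220 CPM against 45140, 53750, 20920 and 69360, overlapping through UN 6, and 52230 to 78660 in U.

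The 12 genes with the widest gap in this direction included the fat genes Cox8b, Cidea and Cebpa beside genes of other functions. All 12 had a higher median in U than in UT, as the adipocyte sum had (56540 against 14800 CPM). The part of fat content in these genes was not tested. Cox8b, a subunit of cytochrome c oxidase found in muscle and brown fat, was 13.7, 14.7 and 23.9 CPM against 105, 129, 754 and 229, with 118 to 264 in U. Cidea, a lipid droplet protein of brown fat, was 38.7, 39.4 and 24.3 CPM against 315, 123, 147 and 262, with 38.5 to 139 in U. The Krt14-low libraries UN 4, UN 6 and UN 2 thus lay above the U range for Cidea. Ucp1, the uncoupling protein of brown fat, which is not among the 12, was at most 2.40 CPM in the Krt14-high libraries against 12.4, 30.4, 4.49 and 23.8 CPM. Cebpa, a transcription factor of fat cell differentiation, was 26.4, 30.8 and 34.5 CPM against 71.0, 194, 85.4 and 97.0. Ppp1r1a, an inhibitor of protein phosphatase 1, was 26.7 to 75.7 CPM against 162 to 517, and Chchd10, a mitochondrial protein, 81.3 to 132 CPM against 282 to 432. The thyrotropin receptor gene Tshr was 5.94 to 11.6 CPM against 31.7 to 60.5, and Smpd3, a sphingomyelinase, 1.25 to 3.92 CPM against 9.75 to 37.0. Aqp11, Pxmp2, Clybl, Orm3 and Proca1 completed the 12, with gaps of 0.99 to 1.10 log2 units. All 24 genes named by their gap also did not overlap with TMM sizes.

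Genes of other cell types mostly overlapped. Of 18 smooth muscle, 10 mast cell, 12 endothelial, 8 nerve and 7 erythroid genes, 0 were higher and 0 lower. Smooth muscle nevertheless varied, with a summed list of 1083, 3748 and 8461 CPM against 4912, 1893, 1093 and 1431. UN 3, the library of most Krt14, had the lowest sum. Myh11 was 29.6, 577 and 2047 CPM against 757, 254, 46.0 and 25.6. Among 18 fibroblast genes, Fap was lower. Among immune lists, Cd14 of 16 macrophage genes, Ltf of 12 neutrophil genes and Pdcd1 of 14 T and NK cell genes were higher, beside 14.5% of all genes. Of 7 B and plasma cell genes, 2 were higher, Jchain at 642, 700 and 676 CPM and Mzb1 at 26.1, 40.4 and 12.9 CPM, against 146 to 244 and 5.46 to 8.50 CPM. Jchain, the chain that joins secreted immunoglobulins, was 6.01 to 40.7 CPM in U and so above U in all 7. Neutrophil sums ran from 82.2 to 1737 CPM in the UN libraries, against 28.7 to 45.0 in U, with UN 3 (1737) and UN 2 (921) on top. Of 9 kidney tubule genes, Aqp3 was higher, a water channel that urothelium also makes, and of 8 mesothelial genes Msln, Bnc1 and Krt19 were higher and Lrrn4 lower, beside 14.5% and 2.41% of all genes. With TMM sizes the calls of Cd14, Fap and Aqp3 were lost, 1 macrophage gene was lower, and 1 B and plasma cell gene and 2 mesothelial genes were higher, beside 6.72% and 7.0% of all genes. Without UN 2, 4 macrophage genes were higher and 0 lower, beside 17.4% and 3.19% of all genes, and without UN 6, 1 was higher and 2 were lower, beside 16.7% and 5.51%. Without UN 6, 1 luminal, 1 EGF family, 1 kidney tubule and 2 hypoxia genes were also lower, and without UN 2, 1 endothelial and 2 kidney tubule genes were higher.

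**Figure D4:**
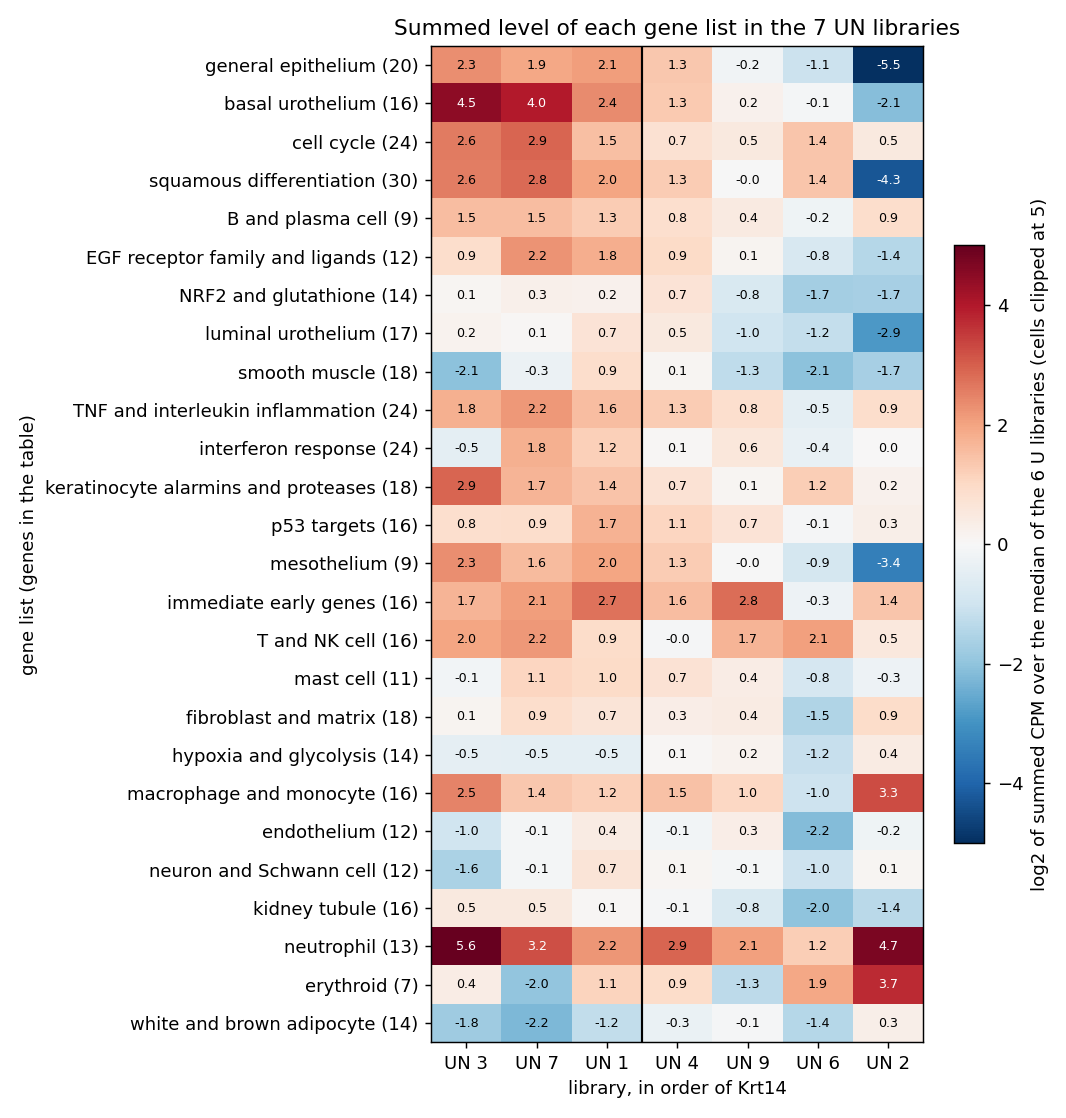
Summed CPM of each gene list in each UN library, as log2 over the median of the 6 U libraries, with lists ordered by their median difference between the sides and libraries by Krt14 (color clipped at 5). In the basal (Krt14 included), epithelial and cell cycle lists each of the 3 libraries left of the line is higher than each of the 4 to its right, the adipocyte sums overlap through UN 6, and UN 2 stands apart in its epithelial and luminal sums.

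The genes that separated the sides were then set beside the untreated ureter. Of the 2185 genes higher in the Krt14-high libraries, 2007 (91.9%) were above every U library in all 3 of them, where 4741 of all 15034 genes (31.5%) were. The 4 Krt14-low libraries were all above U for 86 of the 2185 (3.94%), against 2.45% of all genes. Of the 363 lower genes, 301 (82.9%) were below every U library in all 3 Krt14-high libraries, against 9.21% of all genes. The genes were chosen on these libraries, so the shares are a description. Library by library, UN 3, UN 7, UN 1 and UN 4 had 2375, 2770, 1869 and 1110 genes over 2-fold above the highest U value, UN 9 had 382, UN 6 had 1596 and UN 2 had 841. Over 2-fold below the lowest U value were 1788, 781, 431 and 300 genes in UN 3, UN 7, UN 1 and UN 4, 216 in UN 9, 4004 in UN 6 and 1732 in UN 2. UN 9 departed least from U in both directions, and UN 6 fell below U most often, at 26.6% of the genes.

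Krt14 was tested in samples that played no part in the order. The question was whether mice with a Krt14-high noncancer side also had more Krt14 in their cancer side or bladder. In the cancer side, Krt14 was 1080, 831 and 2067 CPM in mice 3, 7 and 1, and 2567, 132, 1033 and 3834 CPM in mice 4, 9, 6 and 2. The classes overlapped, and mouse 2, with the least Krt14 in UN, had the most in UT. Mean log2(CPM + 1) was 10.26 ± 0.677 (SD, n = 3) and 10.07 ± 2.17 (SD, n = 4), a difference of 0.19 (two-sided exact permutation test, p = 1.0, adjusted p = 1.0 over the same 4 tests). It was -0.19 without UT 1 and -0.82 without UT 9.

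In the bladder, Krt14 was 142, 8812 and 250 CPM in mice 3, 7 and 1, and 747, 1413, 2527 and 3070 CPM in mice 4, 9, 6 and 2. Mean log2(CPM + 1) was 9.41 ± 3.22 (SD, n = 3) and 10.73 ± 0.918 (SD, n = 4), a difference of -1.31 (two-sided exact permutation test, p = 0.457, adjusted p = 0.914). The library name of the bladder of mouse 6 carries a T, as those of the cancer sides do, and those of the other 6 bladders an N, although all have the same GEO label, and without it the difference was -1.12. The bladder libraries of mice 3, 1 and 4 had RIN 2.6, 3.2 and 3.2, and without them the difference was 1.99, from 1 mouse against 3. It was -3.16 without the bladder of mouse 7 and -0.19 without that of mouse 3. Neither tissue thus showed a difference beyond the spread between mice, in a design that cannot reach p of 0.05.

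**Figure D5:**
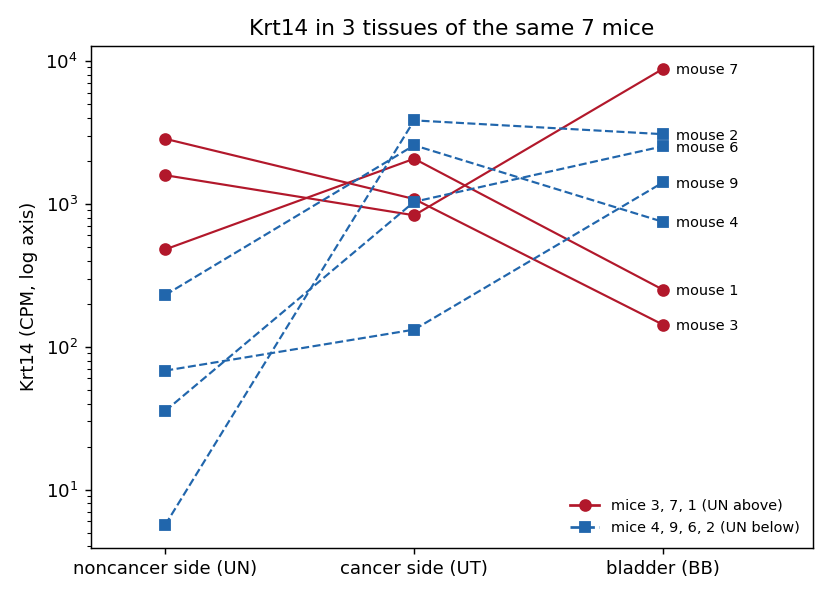
Krt14 in CPM on a log axis in the noncancer side, the cancer side and the bladder of the same 7 mice, 1 line per mouse, solid red for the 3 Krt14-high and dashed blue for the 4 Krt14-low mice. The lines cross, and mouse 2 goes from 5.67 CPM in UN to 3834 CPM in UT.

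The cancer sides of the 2 classes of mice were also compared across all genes, by the quasi-likelihood test of edgeR with p adjusted by Benjamini and Hochberg. Of 15227 genes, edgeR called 0 (0%) higher and 0 (0%) lower by an adjusted p below 0.1 together with a change of 2-fold or more, while 328 had an unadjusted p under 0.05. DESeq2 called 11 higher and 2 lower, the latter being the interferon genes Rsad2 (log2 fold change -2.86, adjusted p = 0.0988) and Gbp3 (-2.31, adjusted p = 0.0592). In the bladder, edgeR called 0 of 16930 genes (0%) higher and 0 (0%) lower, with 353 at an unadjusted p under 0.05, and DESeq2 called 9 higher and 0 lower. Those 9 include the fat genes Cox8b (log2 fold change 5.07, adjusted p = 0.07) and Retn (5.02, adjusted p = 0.0472), which were lower in the Krt14-high ureters. The adipocyte list had a median log2 fold change of 3.22 by edgeR in the bladder, with 11 of 11 genes above 0, beside 53.7% of all genes. Other markers moved in this bladder comparison too, with 6 of 6 erythroid (1.905), 3 of 18 smooth muscle (-0.52) and 1 of 8 B and plasma cell genes (-1.02) above 0. Bladder RIN was 2.6 and 3.2 in the Krt14-high mice 3 and 1, and 3.2 in the Krt14-low mouse 4. The part of RNA quality and tissue content in these values was not tested. In the cancer side, where 44.7% of all genes were above 0, 0 of 24 cell cycle genes were above 0 (median log2 fold change -0.82), 7 of 28 squamous genes (-1.02) and 2 of 16 basal genes (-0.50), beside 12 of 20 general epithelial genes (0.08), and 0 of 24 interferon genes were (-1.82). Markers of other tissue moved in the same comparison, as 0 of 9 kidney tubule genes (-4.88), 0 of 12 endothelial genes (-0.58) and 1 of 14 hypoxia genes (-0.92) were above 0, and 14 of 16 macrophage (0.59) and 10 of 11 mast cell genes (1.46) were. These are fitted values without a test of the lists, and the part of these markers in the other lists was not tested. The kidney tubule sum had a median of 375 CPM and a highest value of 4402 CPM over all UT libraries. UT 9, of a Krt14-low mouse, had an epithelial sum of 1579 CPM, where the other cancer sides compared had 4720 to 11020 CPM. The fold changes come from the fit with UT 9 kept, and single libraries can weigh on them. Without the bladder of mouse 7, edgeR called 15 higher. Krt14 had a log2 fold change of -0.44 ± 0.963 (SE) in the cancer side by edgeR, opposite in sign to the difference of mean logs above, with an adjusted p of 0.999. In the bladder it had 0.54 ± 1.23 (SE, adjusted p = 0.988), also opposite in sign to the difference of mean logs. Krt15 had 1.46 ± 0.818 (SE) in the cancer side, at an adjusted p of 0.999. In simulated counts with 3 against 4 mice, edgeR recovered 83.5% of 200 genes changed by 8-fold among 15002, with 10 false calls. Only genes above a minimum level were changed. The simulation held no smaller changes and no differences in tissue content between mice, so it does not show how well such changes would be found.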

How the data were processed

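Whole transcriptome sequencing of mouse ureter and bladder was analysed from 1 table of 24421 gene symbols and 37 libraries. The authors deposited estimated counts, not normalized, of which 21.1% of nonzero values are fractional, made with TopHat2 2.1.1 and Cuffdiff 2.2.1 on GRCm38/mm10 per the labels. Libraries were built with SMARTerHT and Nextera XT kits, whose strand is not stated, so antisense and overlapping genes cannot be told apart. Counts were rounded for edgeR 4.0.16 and DESeq2 1.42.0 (R 4.3.3), and CPM used column totals. Columns were matched to samples by name, and RIN was read from the sequencing statistics of the study. Fat, muscle and immune cells were part of the bulk tissue, and precision is set by totals of 4675081 to 14973904 counts in UN.

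Genes needed a mean of at least 1 CPM over the 7 UN libraries, and a gene separated the sides when their CPM ranges did not overlap. Named genes were Krt14, the 12 of widest gap in each direction without Gm and Rik models, and of each list the 3 of widest gap and the 2 of highest level. Any other gene was picked with its values known. The division, the gene lists and the tests were chosen with earlier results of these data known. Single values were compared with exact permutation tests in Python 3.11.15 with scipy 1.17.1, and the edgeR fit was tested on simulated data.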

Additional observations from a re-analysis of the deposited data

Results flagged for a closer look

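In 17 of 112 groups of libraries compared, 1 library lay far from the others of its group by Dixon's test, which chance gives in about 1 of 20. UN 6 stood apart in total count (4675000, nearest 10940000), RIN (3.2, nearest 5.7), the percent of counts on its 10 most abundant genes (35.5, nearest 16.0), the percent on Rn45s (19.7, nearest 0.989) and the summed fibroblast genes (10.31 as log2(CPM + 1), nearest 11.95). UN 2 stood apart in squamous genes (6.14 as log2(CPM + 1), nearest 10.37). The other cases were untreated libraries. U 6 stood apart in the percent of counts on Rn45s (0.726), and on the log2(CPM + 1) scale in Pxmp2 (7.33), Proca1 (5.46) and adipocyte genes (16.26). U 4 was low, on the same scale, in squamous (9.59), epithelial (10.35), mesothelial (8.44) and NRF2 genes (11.50). U 2 was high in Pinlyp (0.33), U 3 low in Cidea (5.30) and U 5 low in B and plasma cell genes (8.52), again as log2(CPM + 1). The causes were not tested.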

How the results depend on the processing

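The 3 Krt14-high libraries were the same under both other scalings. TMM sizes gave 1033 genes higher and 1077 lower and list medians of 1.10 for B and plasma cells, 1.82 for the cell cycle and 0.74 for interferon, the only 3 of 26 lists to move by more than the spread of the Krt14-low libraries. The 2 highest libraries against the rest gave 640 genes lower, and the 4 highest 3404 higher. Leaving out each UN library gave 2393 to 4844 genes higher and 480 to 823 lower, by construction more than with all 7. The difference in Krt14 ranged from -0.82 to 0.80 in the cancer side (-0.19 without UT 1, -0.82 without UT 9) and from -3.16 to -0.19 in the bladder over single libraries left out, and was 1.99 without bladders of RIN under 5. The difference in RIN was -0.167 without UN 6. DESeq2 called 11 genes higher and 2 lower in the cancer side and 9 higher in the bladder, where leaving out single libraries gave 0 to 15 by edgeR, and the cause was not tested. CPM without Rn45s and Lars2, chosen after seeing the data, gave 2077 and 481. No paired analysis was possible because the sides hold libraries of different mice. Depth limits genes of few counts most in UN 6, with 4675081 counts.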

Other observations

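Oas1a, an interferon-induced gene, put the UN libraries in another order than Krt14 or the summed interferon list did. It was 0.033 CPM in UN 3, 0.067 in UN 7, 48.1 in UN 1, 0.456 in UN 4, 15.9 in UN 9, 0 in UN 6 and 31.4 in UN 2, while U had 4.59 to 10.03 CPM. Oas2, beside it in the list, was 3.14, 51.6 and 23.8 CPM in UN 3, UN 7 and UN 1 and 5.35 to 13.5 CPM in the other 4. Both genes were chosen after their values were seen.

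Lcn2, the neutrophil and epithelial protein lipocalin 2, was 1329 CPM in UN 3, 53.6 in UN 7, 33.6 in UN 1, 147 in UN 4, 2.02 in UN 9, 3.0 in UN 6 and 330 in UN 2, with 0.417 to 2.21 CPM in U. The 3 highest were UN 3, UN 2 and UN 4. Gpx2, an epithelial glutathione peroxidase, was 725 and 386 CPM in UN 3 and UN 7, 76.0 in UN 1 and 2.29 to 95.3 CPM in the Krt14-low libraries, with 2.82 to 7.19 CPM in U.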
